A study of Mus musculus with 30 samples.

Results

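The genes described here encode enzymes of glycolysis and the lactate dehydrogenases, and were read in 3 pools of laser-captured motoneurons from the mouse spinal cord. The list named 10 genes (Hk1, Hk2, Gpi1, Pfkl, Aldoa, Tpi1, Pgk1, Eno1, Ldha and Ldhb), and members were all probe sets that the array annotation gives to 1 of these genes alone. A probe set is the group of short probes on the array that together read out a transcript. Members were found for 8 genes, with 11 probe sets out of 12422 tested, among 8251 genes with a named probe set. Gpi1 and Eno1 had no probe set under this rule and are not analysed here.

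Glycolysis splits glucose into pyruvate and yields ATP without oxygen. Lactate dehydrogenase interconverts pyruvate and lactate as a tetramer of A and B subunits, encoded by Ldha and Ldhb. A-rich tetramers predominate in tissues that make lactate, such as fast skeletal muscle, and B-rich tetramers in heart and in neurons. Hexokinase takes the first step of the pathway: Hk1 is the form of brain and red blood cells, while Hk2 is best known from muscle and fat, is induced by insulin and hypoxia, and is low in most adult neurons.

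The first pool was cut from the intermediolateral column (IML), which holds the autonomic preganglionic motoneurons that project to the ganglia serving the viscera. The other pools held somatic motoneurons, which drive skeletal muscle: LMN were cut from the lateral and MMN from the medial motor column. All 3 pools came from the spinal cords of the same 5 adult sham-operated mice, with no genetic change or drug named in the labels, so every animal had undergone the sham operation. Each pool of each animal was made of 400 captures, and its RNA was read on 2 arrays whose log2 values were averaged, which gave 15 samples from 30 arrays. "Somatic" below means the average of LMN and MMN of an animal. Every n is a number of animals, and their number limits the precision.

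All 15 samples resembled each other closely: the median rank correlation of a sample with the others ran from 0.978 to 0.986, and no sample stood apart by this measure. The 2 arrays of a sample correlated with r from 0.983 to 0.998, yet only 20 of 30 arrays correlated best with their own technical partner. Markers of cells other than motoneurons also gave signal, so the captures cannot be taken as pure motoneurons. The summed intensity of 9 measured motoneuron markers ran from 6005 to 9327 in IML, from 11083 to 20273 in LMN and from 9437 to 14935 in MMN. The lowest intensity of any tested probe set on any array was 6.46, so an intensity above 0 does not show that a transcript was detected. Chat, which encodes the enzyme that makes acetylcholine, had no named probe set. The 11 meningeal and fibroblast markers summed to between 13125 and 23369 in IML, 3723 and 11711 in LMN, and 5316 and 20027 in MMN. In such pooled captures, fewer cells of a type and less RNA per cell cannot be told apart.

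Ldha and Hk2 were higher in IML than in the somatic pools, and no other member passed the test in that comparison. Ldha was 1.63 times and Hk2 1.31 times as high in IML. Among the remaining members Aldoa, Tpi1 and Pgk1, enzymes of the middle of the pathway, and Ldhb had differences below 0, and none of these was called against the somatic mean. Across all 12422 probe sets 5.52% were called between IML and somatic samples (limma, Benjamini-Hochberg adjusted p under 0.05), 3.44% higher and 2.09% lower in IML. Of the 11 member probe sets, 2 were called higher and 0 lower by limma, and 6 had an unadjusted p under 0.05, against 20.7% of all probe sets. The median difference over the 11 was -0.05 (log2), against -0.01 over all probe sets. These counts describe a short list that was drawn up with results of these data known.

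The promoters of Ldha, Ldhb and Hk2 are printed because the first pair is compared below and Ldha and Hk2 are the members called higher. Each sequence runs from 250 bases before to 50 bases after the transcription start, 5′ to 3′ on the gene's own strand, from RefSeq on GRCm38.p6. The windows are chr7:46845554-46845853 on the plus strand for Ldha, chr6:142507908-142508207 on the minus strand for Ldhb and chr6:82774405-82774704 on the minus strand for Hk2. Capitals mark matches, on either strand, to ACGTG or GCGTG, the core letters of the hypoxia response element. HIF-1, the hypoxia-inducible factor, is known to bind such elements in the promoters of several glycolysis genes.
Ldha: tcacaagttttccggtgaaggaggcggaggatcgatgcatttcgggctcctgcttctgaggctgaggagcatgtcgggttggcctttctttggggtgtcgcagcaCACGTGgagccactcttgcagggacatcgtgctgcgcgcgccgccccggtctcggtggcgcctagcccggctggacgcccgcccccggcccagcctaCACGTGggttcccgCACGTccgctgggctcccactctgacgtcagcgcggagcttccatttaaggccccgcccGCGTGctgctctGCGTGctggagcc
Ldhb: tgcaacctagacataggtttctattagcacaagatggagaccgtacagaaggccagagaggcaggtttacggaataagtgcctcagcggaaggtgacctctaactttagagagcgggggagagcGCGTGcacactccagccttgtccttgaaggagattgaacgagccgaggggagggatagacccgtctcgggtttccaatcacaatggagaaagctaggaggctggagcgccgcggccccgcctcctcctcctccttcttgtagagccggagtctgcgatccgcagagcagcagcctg
Hk2: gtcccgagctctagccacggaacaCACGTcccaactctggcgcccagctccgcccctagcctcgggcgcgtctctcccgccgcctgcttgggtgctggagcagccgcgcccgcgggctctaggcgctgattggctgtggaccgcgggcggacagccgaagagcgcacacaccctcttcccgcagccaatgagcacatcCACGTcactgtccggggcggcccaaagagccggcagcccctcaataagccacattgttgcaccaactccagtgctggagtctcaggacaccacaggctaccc

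The Ldha window held 7 matches, counting a palindromic CACGTG once on each strand, the Ldhb window held 1 and the Hk2 window held 2. Of all 32851 windows in the RefSeq table, 43.8% held at least 1 match, 20.6% at least 2 and 8.93% at least 3. A second Ldha start had 2 matches, and the 2 Hk1 starts had 0 and 5. Of the other members, Pgk1 had 2 matches, Pfkl 1, the 3 Aldoa starts 0, 1 and 1, and Tpi1 0. A match describes letters in a window and does not show that a factor binds there. The build is that of the promoter table, since the array annotation names none.

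**Figure D1:**
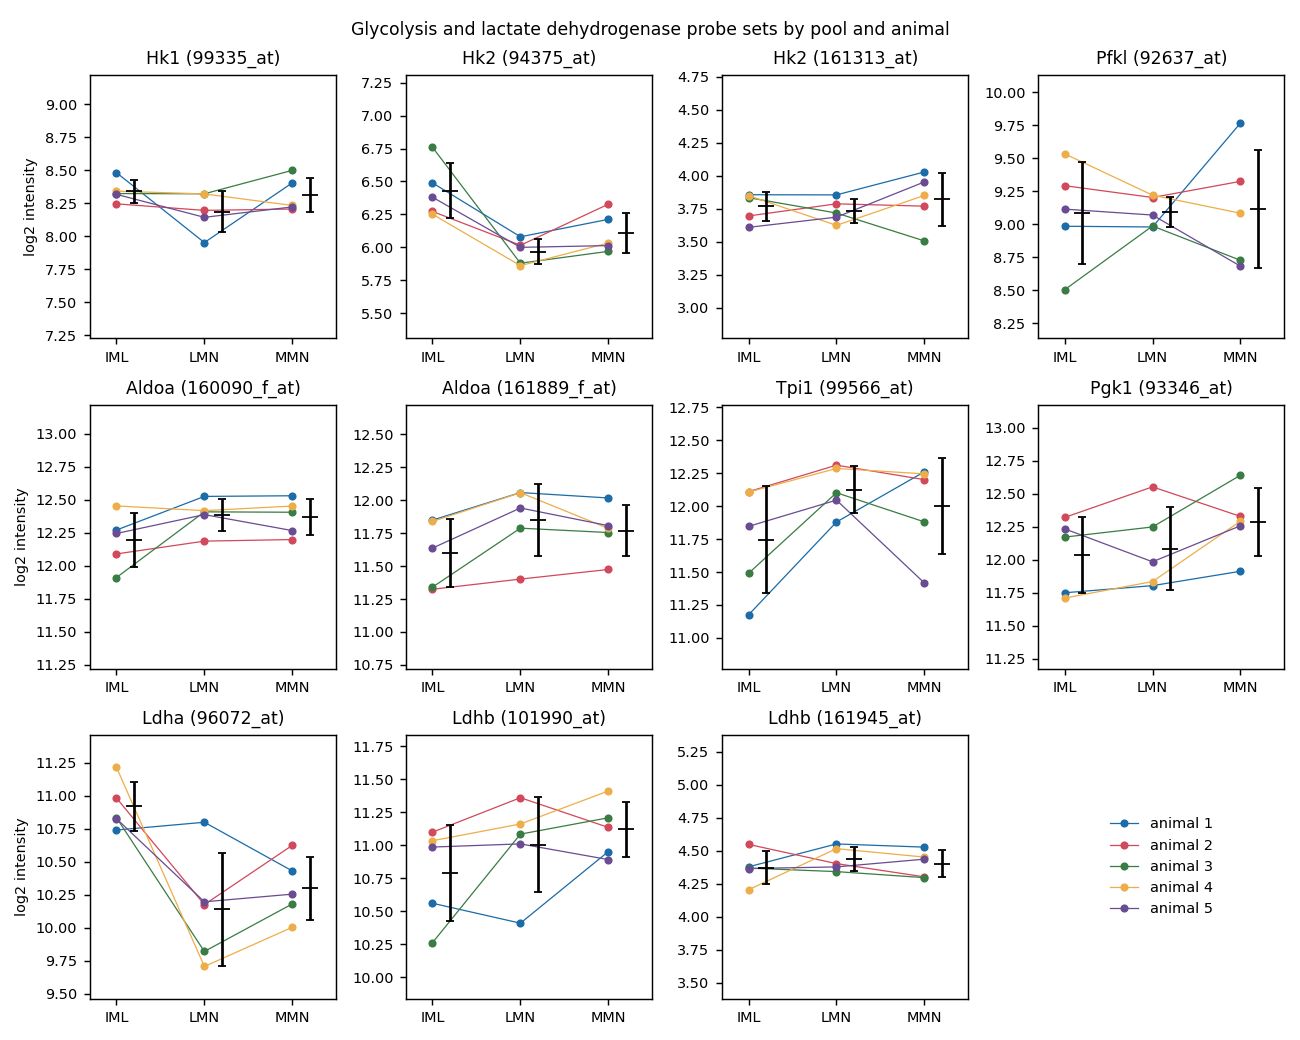
Log2 intensity (y axis) of the 11 member probe sets in IML, LMN and MMN (x axis), with 1 colour per animal, lines joining samples of the same animal, and black bars for the mean ± SD over 5 animals. Every panel spans 2 log2 units. Ldha and the brighter Hk2 probe set have their highest pool means in IML, 10.92 and 6.43.

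Hk1 and Hk2 catalyse the same first step, the phosphorylation of glucose. The brighter Hk2 probe set (94375_at) had log2 intensities of 6.49, 6.27, 6.76, 6.25 and 6.38 in IML of animals 1 to 5, 6.08, 6.02, 5.88, 5.86 and 6.00 in LMN, and 6.21, 6.33, 5.97, 6.03 and 6.01 in MMN. Every IML value lay above every LMN value. IML and MMN overlapped through animal 2, whose MMN value exceeded its IML value. The difference between IML and somatic samples was 0.39 ± 0.08 (log2, SE, n = 5), positive in 5 of 5 animals, with an adjusted p of 0.0227 by limma. Against LMN alone it was 0.46 ± 0.10 (adjusted p = 0.0149), and against MMN 0.32 ± 0.10, which missed the threshold (adjusted p = 0.226).

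The Hk2 signal was low in all pools. The mean of this probe set, 6.17, stood at the 32.2 percentile of all probe sets, below the median of 7.10, and the files used here carry no detection calls. The other Hk2 probe set (161313_at) was dimmer still, with a mean of 3.77 at the 3.80 percentile. Its values ran from 3.61 to 3.86 in IML, 3.62 to 3.85 in LMN and 3.51 to 4.03 in MMN, and its difference between IML and somatic samples was -0.01 ± 0.07. The 2 probe sets of the gene therefore disagree. At such intensities it is unknown whether a probe set detects the transcript.

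Animal 3 had the largest Hk2 difference, 0.83, against 0.10 to 0.37 in the other animals. In the same animal the mean of 4 red blood cell markers was higher in IML by 2.14, against -0.07 to 0.30 in the others. The summed intensity of those markers ran from 1464 to 6775 in IML, from 1003 to 1675 in LMN and from 905 to 2137 in MMN. The Hk2 call against somatic samples was also lost when any of 4 animals was left out. The differences were 0.40, 0.28, 0.41 and 0.40 without animals 1, 3, 4 and 5 (adjusted p = 0.0671, 0.0630, 0.0653 and 0.0944), and without animal 2 the difference was 0.46 and passed (adjusted p = 0.0178). Against LMN the call was lost without animal 5 (0.48, adjusted p = 0.0599). With only the IML sample of animal 3 left out the difference from somatic samples was 0.28 ± 0.06 and passed (adjusted p = 0.0384), and with the red blood cell marker mean as a covariate 0.24 ± 0.06 (adjusted p = 0.101). The last 2 models were chosen after seeing the data.

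Hk1 (99335_at) was brighter, with a mean of 8.28 at the 71.9 percentile. Its log2 intensities were 8.48, 8.25, 8.32, 8.34 and 8.32 in IML of animals 1 to 5, 7.95, 8.20, 8.32, 8.32 and 8.14 in LMN, and 8.41, 8.21, 8.50, 8.23 and 8.22 in MMN. The pools overlapped throughout. The difference between IML and somatic samples was 0.09 ± 0.07 (adjusted p = 0.517), and no contrast of Hk1 was called.

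Levels of different probe sets cannot be set against each other, so the 2 hexokinases were compared by the log2 Hk2 value less the log2 Hk1 value of each sample, and only its change between pools was tested. This value was -1.99, -1.97, -1.57, -2.09 and -1.94 in IML of animals 1 to 5, -1.87, -2.18, -2.44, -2.46 and -2.14 in LMN, and -2.19, -1.88, -2.53, -2.20 and -2.21 in MMN. Animal 3 held both the highest IML value and the lowest MMN value. The value was higher in IML than in somatic samples by 0.30 ± 0.16 (SE), positive in 5 of 5 animals, with an exact permutation p of 0.0329 (two-sided, within animals, 243 arrangements, smallest possible p 0.00412). Adjusted over the 8 comparisons of this kind, 2 gene pairs in 4 contrasts, the exact test gave 0.132 and missed the threshold. The comparisons between single pools count among the 8, although 5 animals allow them no p under 0.0625. Without animal 3 the difference was 0.14 (exact p = 0.185), and with the dim Hk2 probe set in place of the brighter one it was -0.10 (exact p = 0.407).

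Against LMN the Hk2 less Hk1 value differed by 0.31 ± 0.16 and against MMN by 0.29 ± 0.18, each with an exact permutation p of 0.125, where 5 animals allow no p under 0.0625. Between LMN and MMN it differed by -0.02 ± 0.12 (exact permutation p = 1.00). In these comparisons with a single pool the change in Hk2 relative to Hk1 therefore did not pass the test.

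Pfkl encodes the liver-type subunit of phosphofructokinase, which commits fructose 6-phosphate to glycolysis. Its probe set (92637_at, mean 9.10) ran from 8.50 to 9.54 in IML, with a median of 9.12, from 8.98 to 9.22 in LMN and from 8.68 to 9.77 in MMN. The pools overlapped, and the difference between IML and somatic samples was -0.02 ± 0.15 (adjusted p = 0.970). Differences of single animals ran from -0.39 to 0.38, so the animals went opposite ways.

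Aldoa encodes aldolase A, which cleaves fructose 1,6-bisphosphate. Its 2 probe sets (160090_f_at and 161889_f_at) were among the brightest on the array, at the 99.5 and 98.6 percentiles, and their names carry a suffix that marks probe sets able to bind related transcripts. The first had values of 12.27, 12.09, 11.91, 12.45 and 12.24 in IML of animals 1 to 5, 12.53, 12.19, 12.41, 12.42 and 12.39 in LMN, and 12.53, 12.20, 12.41, 12.45 and 12.27 in MMN. IML was the lowest pool in animals 1, 2, 3 and 5, and in animal 4 it lay above LMN by 0.04.

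The second Aldoa probe set had values of 11.85, 11.32, 11.34, 11.84 and 11.64 in IML of animals 1 to 5, 12.06, 11.40, 11.79, 12.06 and 11.94 in LMN, and 12.02, 11.47, 11.75, 11.78 and 11.81 in MMN. The pools overlapped because animals differed more than pools did, while IML was below LMN in 5 of 5 animals. Between IML and LMN, 8.98% of all probe sets were called, 5.46% higher and 3.53% lower. Of the 11 members 2 were called higher, Ldha and Hk2, and 1 lower, this Aldoa probe set, with a difference of -0.25 ± 0.07 (adjusted p = 0.0391). That call was lost in 17 of 25 alternative analyses, with adjusted p from 0.00507 to 0.995 and differences from -0.29 to -0.11. The lowest adjusted p came from the fit with all 30 arrays as units, which allows a correlation between arrays of the same sample. The call ended without animals 1, 3, 4 or 5, where the differences ran from -0.26 to -0.20. Against the somatic mean the 2 probe sets differed by -0.18 ± 0.06 (adjusted p = 0.123) and -0.21 ± 0.06 (adjusted p = 0.0583).

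Tpi1 encodes triosephosphate isomerase, which interconverts the 2 products of aldolase. Its probe set (99566_at) had values of 11.18, 12.11, 11.49, 12.11 and 11.85 in IML of animals 1 to 5, 11.88, 12.31, 12.10, 12.28 and 12.04 in LMN, and 12.26, 12.20, 11.88, 12.24 and 11.42 in MMN. IML was below LMN in every animal, and below MMN in all but animal 5. The difference from the somatic mean was -0.32 ± 0.14 (adjusted p = 0.219). The IML sample of animal 1 and the MMN sample of animal 5, which hold the lowest Tpi1 value of their pools, also had the widest gap between the 3′ and 5′ control probe sets of Gapdh, 3.94 and 4.02 (log2). The other 13 samples had gaps from 1.77 to 3.16. This gap grows as RNA is shortened. In the MMN sample of animal 5 it was 5.66 on one array and 2.38 on the other, and each of the 29 arrays besides the first stood at or below 3.96. Without the array at 5.66, a choice made after seeing the data, the Tpi1 difference was -0.35 ± 0.12 (adjusted p = 0.0993). By pool, the Gapdh gap was wider in IML than in LMN by 0.48 on average, in 5 of 5 animals. The exact permutation p was 0.0625, the smallest that 5 pairs allow. From MMN it differed by 0.05 (exact permutation p = 0.875). The matching gap of the actin control differed by 0.14 between IML and LMN, above 0 in 2 of 5 animals. Whether this bears on genes called between IML and LMN was not tested.

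Pgk1 encodes phosphoglycerate kinase, which makes the first ATP of the pathway. Its values (93346_at) were 11.75, 12.32, 12.17, 11.71 and 12.23 in IML of animals 1 to 5, 11.80, 12.55, 12.25, 11.83 and 11.98 in LMN, and 11.91, 12.33, 12.64, 12.29 and 12.26 in MMN. IML was below MMN in each of the 5 animals and the ranges overlapped. The difference was -0.15 ± 0.09 against the somatic mean (adjusted p = 0.374), -0.05 ± 0.10 against LMN and -0.25 ± 0.10 against MMN (adjusted p = 0.338), and none was called.

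Ldha (96072_at) had log2 intensities of 10.74, 10.98, 10.84, 11.22 and 10.83 in IML of animals 1 to 5, 10.80, 10.18, 9.82, 9.71 and 10.20 in LMN, and 10.43, 10.63, 10.18, 10.00 and 10.26 in MMN. Every IML value lay above every MMN value in these averages of 2 arrays, which depends on a single array described below. The LMN value of animal 1 exceeded the IML value of the same animal, and the other LMN values lay below all IML values. The means were 10.92 ± 0.19 in IML, 10.14 ± 0.43 in LMN and 10.30 ± 0.24 in MMN (SD, n = 5).

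The difference in Ldha between IML and somatic samples was 0.70 ± 0.15 (adjusted p = 0.0211, limma), positive in 5 of 5 animals, with values from 0.13 in animal 1 to 1.36 in animal 4. Against LMN it was 0.78 ± 0.17 (adjusted p = 0.0173), positive in 4 of 5 animals, and that call was lost without animals 3, 4 or 5 (adjusted p = 0.0876, 0.0526 and 0.0668). Against MMN it was 0.62 ± 0.17, positive in 5 of 5 animals, and missed the threshold (adjusted p = 0.183). Without animal 1, which held the smallest difference, it was 0.85 ± 0.12 against the somatic mean (adjusted p = 0.00945). Without animals 3, 4 or 5 the differences were 0.67, 0.54 and 0.73, and the call was lost (adjusted p = 0.103, 0.0648 and 0.0863).

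Ldha was also the member with the widest spread between the 2 arrays of a sample. Its technical SD was 0.32, against 0.07 to 0.29 for the other members. The widest gap, 1.31, lay in the MMN sample of animal 5, with 9.60 on one array and 10.91 on the other. The array at 9.60 is the one with the Gapdh gap of 5.66. With that array left out, the MMN value of animal 5 was 10.91, above the IML values of animals 1, 3 and 5, so IML and MMN overlapped and the difference was positive in 4 of 5 animals. The Ldha difference was then 0.49 ± 0.19 against MMN (adjusted p = 0.272) and 0.64 ± 0.16 against somatic samples, which still passed (adjusted p = 0.0439). With technical set 1 alone the difference from somatic samples was 0.66 ± 0.17 (adjusted p = 0.0693), and with set 2 alone 0.74 ± 0.18 (adjusted p = 0.0340).

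Ldhb had a bright and a dim probe set. The bright one (101990_at, mean 10.97) had values of 10.56, 11.10, 10.26, 11.03 and 10.99 in IML of animals 1 to 5, 10.41, 11.36, 11.08, 11.16 and 11.01 in LMN, and 10.95, 11.14, 11.21, 11.41 and 10.89 in MMN. The pools overlapped, with the IML sample of animal 3 and the LMN sample of animal 1 at the low end. The difference from the somatic mean was -0.27 ± 0.12 (adjusted p = 0.236), from LMN -0.22 ± 0.14 and from MMN -0.33 ± 0.14. Animal 3 had a difference of -0.88 from the somatic mean, against -0.25 to 0.04 in the other animals. The dim probe set (161945_at) had a mean of 4.40 at the 9.11 percentile and a difference of -0.05 ± 0.06.

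The log2 Ldha value less the log2 Ldhb value was 0.18, -0.12, 0.57, 0.18 and -0.16 in IML of animals 1 to 5, 0.39, -1.18, -1.26, -1.45 and -0.81 in LMN, and -0.52, -0.51, -1.03, -1.41 and -0.64 in MMN. IML lay above MMN with no overlap, and above LMN except for the LMN sample of animal 1. Ldha was higher relative to Ldhb in IML than in somatic samples by 0.98 ± 0.29 (SE), a ratio of 1.97, in 5 of 5 animals. The exact permutation p was 0.00823 (two-sided, 243 arrangements), and 0.0658 after adjustment over the 8 comparisons, which missed the threshold. That adjustment includes the comparisons between single pools, which could not pass with 5 animals. Leaving out each animal in turn, the difference ran from 0.79 to 1.16. Without the array with the widest Gapdh gap it was 0.92 ± 0.32 (exact p = 0.0165), and the MMN value of animal 5 was -0.11, above the IML values of animals 2 and 5.

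Against LMN alone the Ldha less Ldhb value was higher in IML by 1.00 ± 0.37, in 4 of 5 animals (exact permutation p = 0.125), and against MMN by 0.95 ± 0.27, in 5 of 5 animals (exact permutation p = 0.0625, the smallest that 5 pairs allow). Without the array with the widest Gapdh gap the difference from MMN was 0.85 ± 0.33 (exact permutation p = 0.125). Between LMN and MMN it differed by -0.04 ± 0.26 (exact permutation p = 0.875), with 0.91 in animal 1 and values from -0.67 to -0.05 in the other animals.

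**Figure D2:**
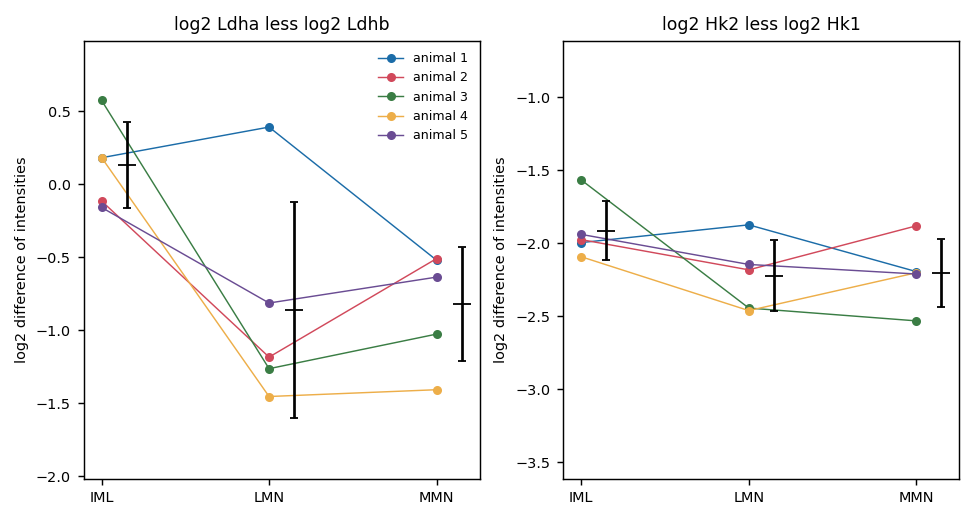
Log2 Ldha less log2 Ldhb (left) and log2 Hk2 less log2 Hk1 (right) on the y axis for each sample, by pool on the x axis, with 1 colour per animal, lines joining samples of the same animal and black bars for mean ± SD (n = 5). In the left panel the IML values, from -0.16 to 0.57, lie above all other values but the LMN value of animal 1, 0.39. In the right panel the IML value of animal 3, -1.57, is the highest.

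Between IML and MMN, 0.346% of all probe sets were called and 0 of the 11 members by limma, though 6 members had an unadjusted p under 0.05, against 12.3% of all probe sets. Between the 2 somatic pools 0.0564% were called and 0 of the 11 members, with 0 members and 11.6% of all probe sets at an unadjusted p under 0.05. The largest member difference between LMN and MMN was that of Pgk1, -0.20 ± 0.10 (adjusted p = 0.466). Ldha (-0.16 ± 0.17) and Hk2 (-0.14 ± 0.10, negative in 5 of 5 animals) were not called either. The 3 IML contrasts share the IML samples, so their agreement is not independent.

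**Figure D3:**
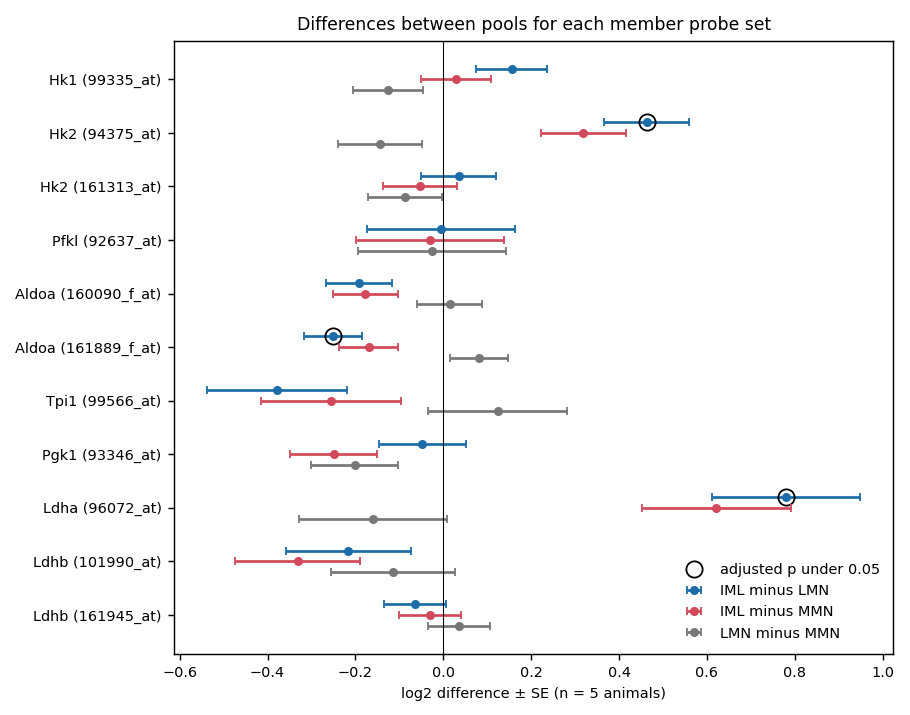
Log2 differences ± SE (x axis, limma, n = 5) of the 11 member probe sets (y axis) for IML minus LMN, IML minus MMN and LMN minus MMN. Rings mark adjusted p under 0.05, which Ldha, the brighter Hk2 probe set and the second Aldoa probe set reached in IML minus LMN.

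The remaining glycolysis enzymes did not pass the test. Of 18 listed, 13 were measured with a named probe set, 0 were called in any of the 4 contrasts by limma, with 5 of 13 at an unadjusted p under 0.05 between IML and somatic samples. There 11 of 13 differences were below 0, against 6656 of 12422 over all probe sets. Their median was -0.06, against -0.01 over all probe sets. The 11 include dim probe sets with differences near 0, such as Pgk2 (mean 4.50, -0.03 ± 0.05) and Ldhc (mean 4.53, -0.02 ± 0.06). Pkm, pyruvate kinase of muscle and brain, averaged 12.07 ± 0.52 in IML, 12.56 ± 0.30 in LMN and 12.51 ± 0.47 in MMN, a difference of -0.46 ± 0.18 (adjusted p = 0.176). Eno2, the neuronal enolase, averaged 11.74 ± 0.48 in IML, 12.16 ± 0.24 in LMN and 12.05 ± 0.10 in MMN, a difference of -0.37 ± 0.13 that was negative in 5 of 5 animals (adjusted p = 0.117). The phosphofructokinase subunits Pfkp and Pfkm differed by -0.30 ± 0.12 and -0.19 ± 0.14, and Pgam1, phosphoglycerate mutase, by -0.14 ± 0.07. The 2 differences above 0 were those of Aldoc, an aldolase of brain, with 0.02 ± 0.13, and Bpgm, which makes 2,3-bisphosphoglycerate in red blood cells, with 0.26 ± 0.11 (adjusted p = 0.221). Against LMN Bpgm differed by 0.43 ± 0.13 (adjusted p = 0.0681), and it is named here after its values were seen. The 3′ control probe set of Gapdh, glyceraldehyde 3-phosphate dehydrogenase, averaged 13.13 ± 0.16 in IML, 13.23 ± 0.07 in LMN and 13.18 ± 0.24 in MMN, and as a control set it was not tested. The middle and 5′ control sets averaged 12.21 and 10.38 in IML, 12.55 and 10.97 in LMN, and 12.30 and 10.48 in MMN.

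Genes that bring glucose in or move lactate across the membrane were not called either, 0 of 11 measured of 14 listed in any contrast by limma, with 1 at an unadjusted p under 0.05 between IML and somatic samples. Slc2a1 and Slc2a3, the glucose transporters GLUT1 and GLUT3, differed by 0.09 ± 0.07 and -0.10 ± 0.09 between IML and somatic samples. Slc16a1 and Slc16a7, the monocarboxylate transporters MCT1 and MCT2, differed by -0.04 ± 0.10 and 0.29 ± 0.10, the second in 5 of 5 animals (adjusted p = 0.121). Slc16a7 averaged 4.82 in IML, against 4.60 in LMN and 4.46 in MMN, far below the median probe set. Bsg, a chaperone of MCT1, differed by -0.23 ± 0.10.

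The list for pyruvate entry into mitochondria held a carrier, the pyruvate dehydrogenase complex, the kinases that inhibit it and pyruvate carboxylase. Of 9 measured genes of 14 listed, 1 was called lower against the somatic mean and 3 against LMN, and 0 higher. Against the somatic mean 7 differences were below 0 and 2 above, those of the kinases Pdk1 (0.01 ± 0.08) and Pdk4 (0.13 ± 0.08). The carrier, Mpc1, differed by -0.01 ± 0.05 (adjusted p = 0.930). Pdk3, a kinase that inhibits pyruvate dehydrogenase, averaged 8.65 ± 0.17 in IML, 9.37 ± 0.20 in LMN and 9.05 ± 0.32 in MMN. It was lower by a log2 difference of -0.56 ± 0.07 against the somatic mean (adjusted p = 0.00227) and -0.71 ± 0.08 against LMN (adjusted p = 0.000895), in 5 of 5 animals. Pdhb, a subunit of pyruvate dehydrogenase, and Dlat, its acetyltransferase component, were called against LMN, with -0.50 ± 0.12 and -0.37 ± 0.09 (adjusted p = 0.0282 and 0.0262). Against the somatic mean Dlat differed by -0.29 ± 0.08, and its other probe set had a difference of the opposite sign. Pdha1, the alpha subunit, differed by -0.19 ± 0.08 from the somatic mean and was not called.

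Of 11 measured genes of glycogen metabolism, out of 15 listed, 2 were called lower against the somatic mean and 0 higher. Gbe1, the glycogen branching enzyme, averaged 5.39 ± 0.49 in IML, 6.43 ± 0.40 in LMN and 5.76 ± 0.52 in MMN, a difference of -0.71 ± 0.18 from the somatic mean (adjusted p = 0.0408). Ugp2, which makes the UDP-glucose that feeds glycogen synthesis, differed by -0.25 ± 0.06 (adjusted p = 0.0493). Phka1, a subunit of phosphorylase kinase, was called against LMN alone (-0.22 ± 0.05, adjusted p = 0.0321). Of 7 measured NADH shuttle genes, out of 9, Mdh2, the mitochondrial malate dehydrogenase, was called lower against LMN (-0.22 ± 0.06, adjusted p = 0.0367) and 0 were called against the somatic mean, with 2 at an unadjusted p under 0.05. Of 8 pentose phosphate genes and 4 regulators of fructose bisphosphate, 0 were called by limma, with 0 at an unadjusted p under 0.05 between IML and somatic samples.

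Among 15 measured hypoxia response factors and targets, out of 18 listed, 1 was called higher and 1 lower against the somatic mean. Ndrg1, a stress-responsive gene that is also abundant in oligodendrocytes, averaged 11.35 ± 0.50 in IML, 10.43 ± 0.48 in LMN and 10.90 ± 0.53 in MMN, a difference of 0.68 ± 0.17 (adjusted p = 0.0394). Bnip3, a mitophagy receptor induced by hypoxia, averaged 9.89 ± 0.35 in IML, 10.69 ± 0.28 in LMN and 10.35 ± 0.27 in MMN, a difference of -0.63 ± 0.08 (adjusted p = 0.00196). P4ha1, a collagen prolyl hydroxylase subunit, was called higher against LMN (0.31 ± 0.06, adjusted p = 0.0155). Hif1a, the oxygen-regulated subunit of HIF-1, differed by 0.11 ± 0.07 and was not called. The list median of 0.01 stood beside -0.01 over all probe sets.

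**Figure D4:**
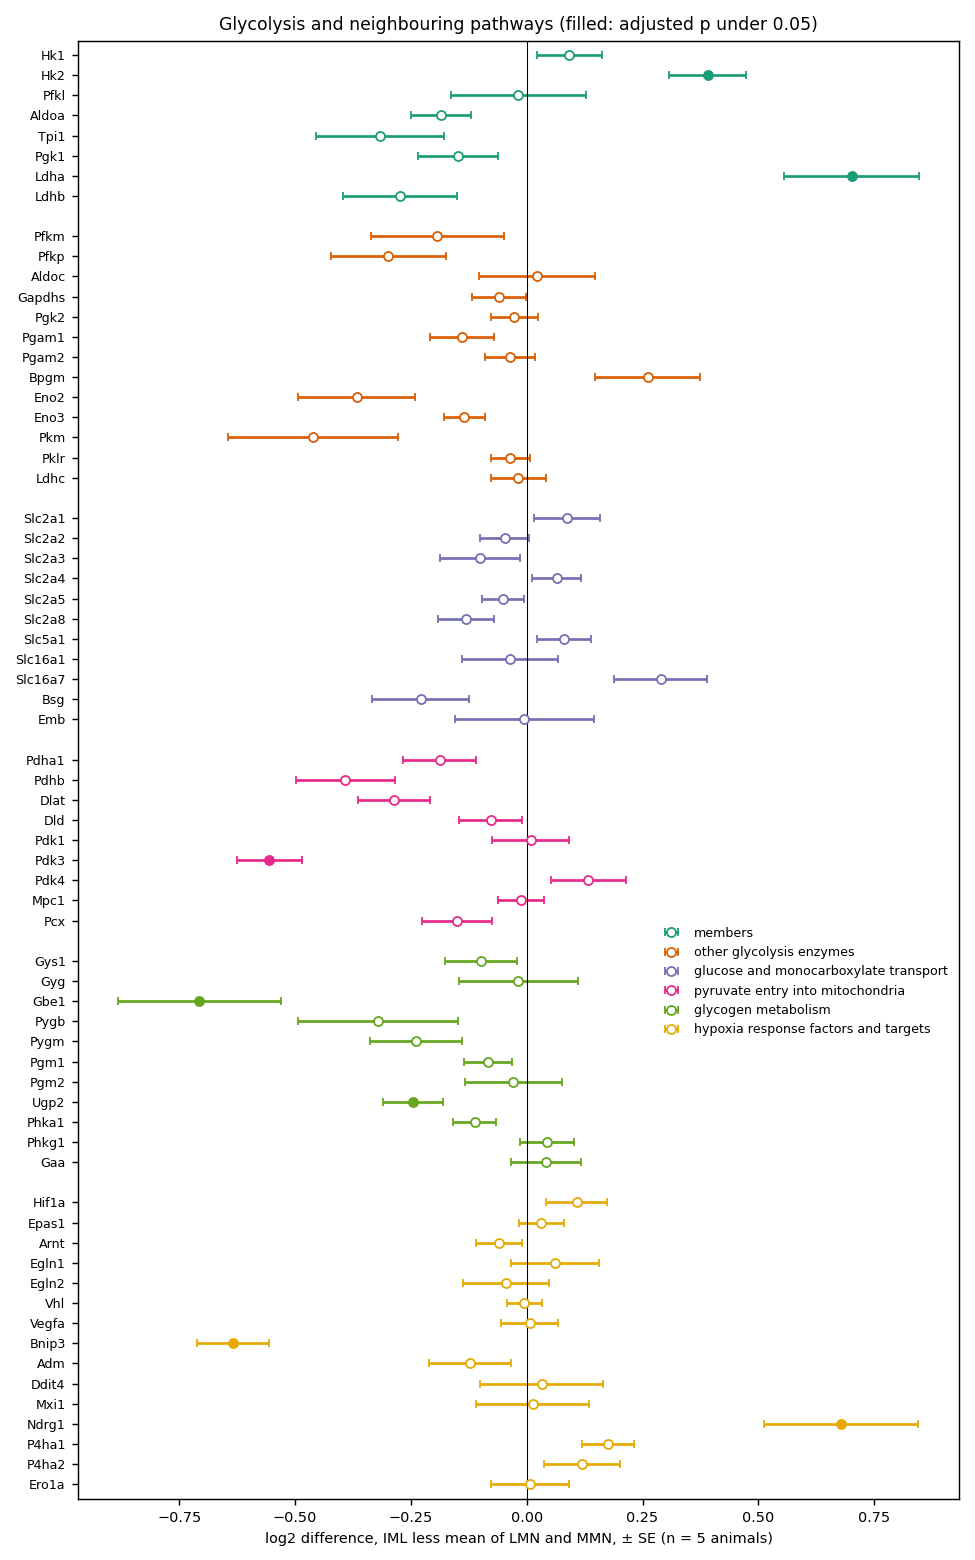
Log2 difference between IML and the mean of LMN and MMN ± SE (x axis, n = 5) for the brightest named probe set of each measured gene (y axis), grouped by list. Filled points have adjusted p under 0.05 over all probe sets. Ldha and Hk2 are the filled members, Pdk3, Gbe1, Ugp2 and Bnip3 are the filled points below 0, and Ndrg1 is filled above 0.

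Markers of other cells also differed between IML and somatic samples. Of 11 meningeal and fibroblast markers 11 differed above 0 between IML and somatic samples and 7 were called, with a mean difference of 0.99. Pdgfra, a receptor of fibroblasts and oligodendrocyte precursors, differed by 0.86 ± 0.13 and Igf2, a growth factor of the meninges, by 1.18 ± 0.21. Both values are from the brightest probe set, and both genes also had a probe set with a difference of the opposite sign. By animal the mean of this list was higher by 0.53, 0.26, 1.47, 1.37 and 1.33 in animals 1 to 5, beside 0.13, 0.58, 0.83, 1.36 and 0.60 for Ldha and 0.34, 0.10, 0.83, 0.30 and 0.37 for Hk2. The smallest marker difference was in animal 2, as for Hk2, while Ldha was smallest in animal 1. The largest was in animal 3, as for Hk2, while Ldha was largest in animal 4. Whether the content of these cells bears on either gene was not tested.

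Among 15 markers of microglia and macrophages, 12 differed above 0 and 3 below. Of the 15, 7 were higher by the test, and the mean difference was 0.37. By animal the mean was higher by 0.54, 0.22, 0.60, 0.19 and 0.29 in animals 1 to 5. It was smallest in animal 4, where Ldha was largest, and largest in animal 3, where Hk2 was largest. Whether this content bears on either gene was not tested. Csf1r, a receptor that maintains microglia, differed by 0.48 ± 0.07 and Tyrobp, an adaptor of myeloid receptors, by 0.79 ± 0.13. The other probe set of Csf1r had a difference of the opposite sign. The summed intensity of the 15 markers ran from 3126 to 5590 in IML, from 2533 to 2920 in LMN and from 2653 to 3547 in MMN. Of 9 motoneuron markers 8 differed below 0 and 1 above, Isl1 with 0.14 ± 0.09. The mean difference of the list was -0.52, and 3 markers were called lower. Among these were Nefh, the heavy neurofilament (-0.83 ± 0.09), and Ret, a receptor for glial-derived neurotrophic factors (-0.34 ± 0.07).

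In 3 other lists a single marker was called, in each case higher. In the astrocyte list, with 1 of 10 called, 5 differences were above 0 and 5 below, from -0.42 for Clu to 1.30 for Fabp7. Fabp7, a fatty acid binding protein, differed by 1.30 ± 0.27 and Gja1, connexin 43, by 0.41 ± 0.11. In the oligodendrocyte list, with 1 of 10 called, 9 differences were above 0 and 1 below. Gsn, the actin-severing protein gelsolin, differed by 1.12 ± 0.21 and Sox10 by 0.13 ± 0.05. In the list of endothelium and mural cells, with 1 of 14 called, 11 differences were above 0 and 3 below. Vwf, the von Willebrand factor, differed by 1.30 ± 0.29 and Cdh5, a cadherin of endothelium, by 0.42 ± 0.12. For Sox10 and Vwf the other probe set of the gene had a difference of the opposite sign. Of 4 red blood cell, 6 inhibitory and 3 excitatory interneuron markers 0 were called against the somatic mean by limma, with 1, 2 and 1 at an unadjusted p under 0.05, and the 2 with the smallest p were Hba-a1 (1.02 ± 0.34) and Alas2 (0.36 ± 0.20), Npy (0.25 ± 0.10) and Gad1 (0.45 ± 0.18), and Lmx1b (-0.13 ± 0.04) and Tlx3 (0.08 ± 0.04), in that order of lists. Summed intensities ran from 10191 to 12748 in IML, 7688 to 9244 in LMN and 8220 to 11957 in MMN for astrocyte markers. They ran from 11551 to 21094 in IML, 9432 to 18711 in LMN and 12954 to 18168 in MMN for oligodendrocyte markers, and from 2491 to 5697 in IML, 1935 to 3017 in LMN and 2468 to 5763 in MMN for endothelial and mural markers.

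When the meningeal and fibroblast mean entered the model as a covariate, the Ldha difference between IML and somatic samples was 0.20 ± 0.29 (adjusted p = 0.992) and the Hk2 difference 0.05 ± 0.15 (adjusted p = 0.996). That model raised the median SE over all probe sets 2.22 times and called 0 probe sets by limma, with 482 at an unadjusted p under 0.05. With the microglia and macrophage mean as a covariate the Ldha difference was 0.99 ± 0.32 (adjusted p = 0.645) and the Hk2 difference 0.00245 ± 0.13 (adjusted p = 0.997). With the astrocyte and oligodendrocyte mean as a covariate they were 1.19 ± 0.15 (adjusted p = 0.0291) and 0.41 ± 0.14 (adjusted p = 0.268), and with the motoneuron mean 1.09 ± 0.19 (adjusted p = 0.122) and 0.39 ± 0.14 (adjusted p = 0.347). Since these marker means differ between the pools, the pool and the marker content cannot be told apart in full.

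**Figure D5:**
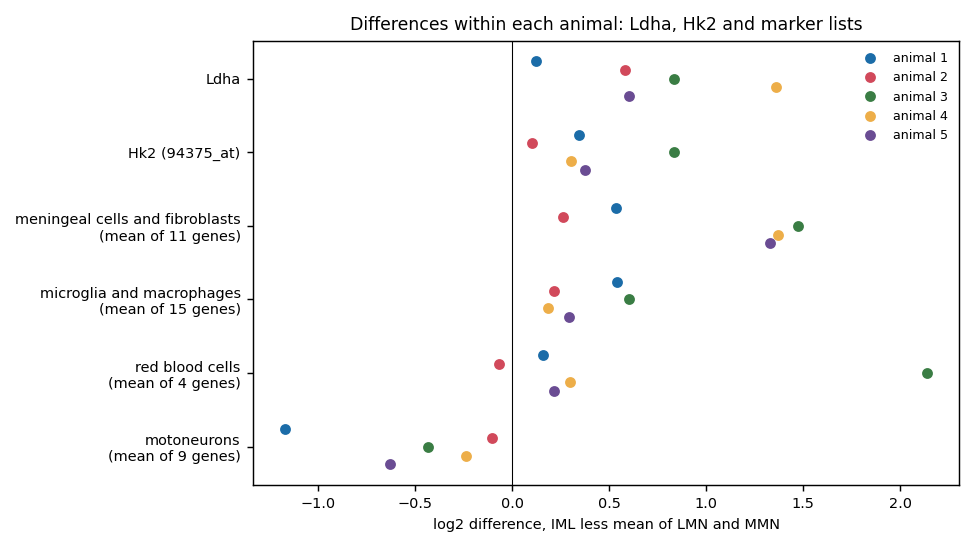
Log2 difference between IML and the mean of LMN and MMN (x axis) within each of the 5 animals (colours) for Ldha, the brighter Hk2 probe set and the means of 4 marker lists (y axis). Animal 3 stands at 2.14 for the red blood cell markers and has the largest Hk2 difference, 0.83.

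Profiles over the 15 samples were compared with 5610 probe sets of 1 named gene with a mean at or above the median (5611 for Hk2). The genes most like Ldha were Ankfy1 (Pearson r = 0.85), Lamb1 (0.84), Syt5 (0.82), S100a6 (0.82) and Bex4 (0.80). For Ldhb they were Ndufa8 (0.91), Tmem185a (0.89), Blvra (0.89), Napb (0.88) and Fkbp2 (0.87). For Hk2 they were Hba-a1 (0.91), Iqgap1 (0.88), Man2a1 (0.88), Lamc1 (0.87) and Ctdsp2 (0.86), and for Hk1 Cachd1 (0.88), Anapc11 (0.85), Acaa1a (0.84), Tceal9 (0.84) and Zmiz2 (0.83). Samples of the same animal or pool are not independent, so these correlations are descriptions. Hba-a1 is a red blood cell marker, and both that marker list and Hk2 had their largest IML difference from somatic samples in animal 3. No gene was named for more than 1 of the 4 members.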

How the data were processed

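The deposited intensity values are on a linear scale. Per the labels, RNA was extracted with a kit, split, amplified in a double protocol and hybridised to Affymetrix arrays, and the authors normalized the signals with "R-pack" and took inverse logs. The method behind that name is not given in the sources used here. After removal of 66 control probe sets, intensities were taken to log2 and averaged over the 2 arrays of a sample. Pool and animal were the terms of a model in limma 3.58.1 (R 4.3.3) over all 15 samples, with p-values adjusted over 12422 probe sets. Errors of differences are standard errors from the model. For the Ldha less Ldhb and Hk2 less Hk1 values they are standard errors over the differences of single animals. Animals were a block because, per the labels, each gave all 3 pools, and in a check samples of the same animal deviated together in 15 of 15 pairs (r from 0.288 to 0.747). The 60 pairs of different animals and different pools had r from -0.614 to 0.387, so the ranges overlapped. The members and gene lists were chosen with earlier results of these data known. Named genes were all members, list genes called in any contrast, a fixed set of pathway genes, the 2 markers of each cell type with the smallest p, and the 5 genes most like Ldha, Ldhb, Hk1 and Hk2, with the brightest probe set per gene. The steps were tested on simulated data. Alternatives changed scaling, floor, filter, block, technical arrays, variance model, covariates and animals.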

Additional observations from a re-analysis of the deposited data

How the results depend on the processing

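Of 25 alternatives, 4 (the red blood cell covariate and leaving out the IML sample of animal 3, the LMN sample of animal 2 or the array with the widest Gapdh gap) were chosen after seeing the data. The Ldha difference between IML and somatic samples kept its sign in 24 of 24 alternatives (0.20 to 1.19, adjusted p from 0.00149 to 0.992) and lost its call in 11, among them a floor of 32 (adjusted p = 0.0644). The Hk2 difference kept its sign in 23 of 23 (0.00245 to 0.46, adjusted p from 0.000105 to 0.997) and lost its call in 11, among them the floor (adjusted p = 0.0585). Settings that change only the block, the variance model or the unit of the fit returned the main estimates by construction, so no sign could change there. The floor also left both estimates as they were. Both lowest adjusted p came from the fit of all 30 arrays. Technical arrays are the units there, with a shared correlation of 0.205 between arrays of the same sample. Of 1069 member differences recomputed, 88 changed sign while missing the threshold both times. The main counts of called probe sets were 686 for IML against somatic, 1116 for IML against LMN, 43 for IML against MMN and 7 for LMN against MMN, and those of members 2, 3, 0 and 0. In the same order, the counts were 1619, 1840, 464 and 241 with all 30 arrays (members 4, 5, 2 and 0), and 46, 135, 4 and 0 with no replicate block, where 0 members were called against somatic (Ldha adjusted p = 0.0561, Hk2 0.0626). They were 836, 1248, 67 and 4 with a random block, 304, 601, 9 and 5 with technical set 1 (members 1, 1, 0 and 0), and 619, 713, 58 and 3 with set 2. A floor of 32 gave 282, 717, 10 and 8 (0 members against somatic), leaving out dim probe sets 540, 842, 35 and 4 (1 member against somatic, since Hk2 was not tested), and fits of single pairs of pools 705, 6 and 67 for the 3 pairs (1 member for IML against LMN). The fibroblast covariate called 0, 0, 0 and 0 by limma, with 482, 475, 539 and 546 at an unadjusted p under 0.05. The microglia covariate called 0, 0, 0 and 4 (unadjusted 928, 1338, 570 and 1748), the motoneuron covariate 0, 0, 0 and 6 (unadjusted 1347, 1444, 1119 and 1181), and these 3 covariates left 0 members called. The astrocyte and oligodendrocyte covariate called 46, 46, 1 and 0 (members 1, 1, 0 and 0), the red blood cell covariate 103, 389, 8 and 23 (members 0, 1, 0 and 0). Without the IML sample of animal 3 the counts were 281, 753, 15 and 10 (1 member against somatic), and without the LMN sample of animal 2 529, 871, 21 and 10. Leaving out each animal in turn, they ran from 164 to 650, 371 to 935, 0 to 42 and 0 to 5, and members from 0 to 2 and 0 to 3 in the first 2 comparisons. The cause of these changes was not tested, apart from the fewer samples and probe sets that some settings hold by construction.

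The change of Ldha less Ldhb between IML and somatic samples lay between 0.79 and 1.16 when each animal was left out. That of Hk2 less Hk1 ran from 0.14 to 0.36, was 0.32 with technical set 2 (exact p = 0.0823), and turned to -0.10 with the dim Hk2 probe set. Of 88 such values over all alternatives, 9 changed sign with the threshold missed both times. Signal without detection calls limits the dim probe sets of Hk2 and Ldhb, and 5 animals limit the rest.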
